A study of Mus musculus with 47 samples.

Results

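The Zfp genes described here are the genes of an allelic count table whose symbol is Zfp followed by a number, apart from Zfp42 and Zfp57, with at least 47 counts summed over all cells and both alleles. Of 13947 genes in the table, 335 carried such a symbol, and 199 of these had the counts needed, among 7984 genes of any name that did. The other 136 Zfp genes had fewer counts, 23 of them 0. Of the 199 genes, 197 are autosomal and Zfp182 and Zfp280c are X-linked. By the GENCODE annotation of GRCm38, 196 are protein coding and 3 are pseudogenes. Zfp36l2, Zfp324 and Zfp866 lay just inside the limit, with 47, 48 and 48 counts, and Zfp3, Zfp383 and Zfp459 just outside it, with 45 counts each.

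The 47 cells are single mouse iPSCs from 1 plate, made from embryonic fibroblasts of a female Mus carrying an X-linked eGFP transgene crossed to a male Cast, by lentiviral overexpression of OSKM. Reads over SNPs between these 2 strains were assigned to the Mus or the Cast allele. The deposited column names divide the cells into 23 with both X chromosomes (X-Mus X-Cast, below XX cells), 15 that kept only the Cast X (X-Cast O-Mus, below X-Cast cells) and 9 that kept only the Mus X (X-Mus O-Cast, below X-Mus cells). All cells share the cross, the reprogramming and the culture in ESC medium with LIF. The labels and the culture methods add ascorbic acid to this medium, but another passage of the methods has control iPSCs passaged without it, so that its presence here is uncertain. There was no cross in the other direction, so that strain and parent of origin cannot be told apart. The labels name no separate cultures, lines or animals, and therefore the 47 cells were treated as 1 sample, with ranges over cells and counting intervals in place of tests.

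Most proteins of this family bind DNA through arrays of C2H2 zinc fingers, in which successive fingers read successive bases. Many also carry a KRAB domain, which recruits TRIM28 and, with it, the H3K9 methyltransferase SETDB1 and HP1 proteins, and such proteins are known for silencing retroelements in embryonic stem cells. The KRAB genes arose largely by tandem duplication and lie in clusters of related copies that differ between mouse strains. Other genes with a Zfp symbol are unrelated in function, such as the CCCH-type RNA-binding proteins of the Zfp36 group.

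Promoter sequences from RefSeq (GRCm38.p6) were found for 166 of the 199 genes. Each runs from 250 bases before to 50 bases after the start. The Zfp promoters had a median of 14 CpG dinucleotides, against 22 in 6195 promoters of other genes with at least 47 counts and 7 in all 27025 promoters. They were therefore poorer in CpG than promoters of other genes detected in these cells. The letters CCAAT, searched on both strands, were in 50.0% of Zfp promoters, 39.8% of the other genes with at least 47 counts and 37.9% of all promoters. For the ETS core CCGGAAG the shares were 21.7%, 20.7% and 9.12%, for GCGCATG, the NRF1 core, 9.04%, 8.14% and 4.04%, for AAGATGGC of YY1 6.02%, 5.52% and 2.88%, and for TATAAA 6.02%, 6.15% and 14.2%. A match describes letters only and is not a measured binding site. The 250 bases before the RefSeq start, which for Zfp217 lies inside the longer GENCODE gene, are shown, 5′ to 3′ on the strand of the gene and in the letters of the reference genome, for 4 genes that the allele counts below turn on. Zfp330 was read mostly from Cast, Zfp317 mostly from Mus, and Zfp217 and Zfp819 from one allele in some cells and from the other in different cells. Capitals mark the ETS core, the NRF1 core, CCAAT or TATAAA, on either strand.
Zfp330 (chr8:82774146-82774395, minus strand): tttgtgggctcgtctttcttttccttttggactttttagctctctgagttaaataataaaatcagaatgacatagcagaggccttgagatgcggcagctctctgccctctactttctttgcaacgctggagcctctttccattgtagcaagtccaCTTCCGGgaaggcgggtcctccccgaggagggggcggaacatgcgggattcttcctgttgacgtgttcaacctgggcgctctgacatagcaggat
Zfp317 (chr9:19621841-19622090, plus strand): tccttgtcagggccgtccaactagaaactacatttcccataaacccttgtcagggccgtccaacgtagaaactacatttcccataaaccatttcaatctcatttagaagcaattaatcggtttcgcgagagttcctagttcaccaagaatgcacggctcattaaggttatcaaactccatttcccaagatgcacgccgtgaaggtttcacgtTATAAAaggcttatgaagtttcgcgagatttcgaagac
Zfp217 (chr2:170142676-170142925, minus strand): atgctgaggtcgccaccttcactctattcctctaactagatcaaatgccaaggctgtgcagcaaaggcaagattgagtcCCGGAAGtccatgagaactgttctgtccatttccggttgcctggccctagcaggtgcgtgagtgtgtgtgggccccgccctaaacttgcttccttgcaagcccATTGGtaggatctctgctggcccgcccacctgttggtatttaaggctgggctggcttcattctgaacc
Zfp819 (chr7:43606919-43607168, plus strand): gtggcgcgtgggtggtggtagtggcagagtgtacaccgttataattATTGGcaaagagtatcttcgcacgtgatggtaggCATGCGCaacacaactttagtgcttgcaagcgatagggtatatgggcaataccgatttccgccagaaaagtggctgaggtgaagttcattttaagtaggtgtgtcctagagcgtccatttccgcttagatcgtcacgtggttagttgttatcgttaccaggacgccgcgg
The stretches hold 10 CpG for Zfp330, 13 for Zfp317, 6 for Zfp217 and 17 for Zfp819.

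Each cell had 71682 to 216451 allelic counts. The reads carry no molecular identifiers, so that intervals on counts cover counting error only, and 1 cDNA molecule can give several counts. All 8 pluripotency markers checked (Pou5f1, Nanog, Sox2, Esrrb, Tet1, Dppa4, Zfp42 and Tdgf1) were in the table, and their summed counts per cell ran from 258 to 1956. Most of this sum came from Tdgf1 (25368 counts) and Zfp42 (11655), followed by Tet1 with 2773. Nanog, Sox2, Esrrb and Zfp42 were each found in 46 cells and the others in all 47. Of 7 fibroblast markers in the table, Col1a2, Dcn, Lum and Postn had 0 counts. Thy1 had 91 counts in 10 cells, Col1a1 had 13 counts in 4 cells and Twist2 had 3 counts in 1 cell. The sum of all 7 had a median of 0 per cell and a highest value of 30. Of 5 early lineage genes in the table, Gata6, Cdx2 and Fgf5 had 0 counts, Gata4 had 3 counts in 1 cell and T had 21 counts in 3 cells.

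The Zfp genes were expressed at low levels. Together they held 44806 counts, 0.580% of all allelic counts, although they made up 2.49% of the genes with at least 47 counts. The median Zfp gene had 138 summed counts (range 47 to 1920), against 256 for 7553 other autosomal genes with the same minimum. Per kilobase of exon the medians were 27.7 and 56.3 counts. The Zfp genes were thus lower per length too, although allelic counts also depend on the number of SNPs in a gene, which is not known here, so that levels of different genes can be compared only roughly. The 8 genes with most counts held 21.1% of the counts of the family.

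Zfp706, needed for the exit of embryonic stem cells from self-renewal, had the most counts, 1920 (95% Poisson interval 1835 to 2008), and was the only Zfp gene found in all 47 cells, with 6 to 93 counts per cell and a median of 41. Zfp428 followed with 1438 counts in 46 cells and a median of 24 per cell. Zfp568, a KRAB protein that silences a placental promoter of Igf2, had 1244 counts in 45 cells and a median of 17. Zfp330, a nucleolar protein, had 1135 counts in 43 cells with a median of 21, and Zfp296, expressed in pluripotent cells, 1048 counts in 39 cells with a median of 15. These 5 genes were thus found in most cells. Zfp566 (1047 counts), Zfp819 (878 counts) and Zfp444 (744 counts) were more uneven, with counts in 31, 31 and 34 cells and highest cells of 187, 145 and 95 counts. Per kilobase of exon the order differed, with Zfp428 first at 1099 counts, then Zfp566 at 606, Zfp296 at 514 and Zfp706 at 385. Other annotated genes overlap 83 of the 199 Zfp genes, among them Zfp428, Zfp566 and Zfp296 (with Gemin7), and the libraries do not mark the strand, so that counts of overlapping genes cannot be told apart. The same holds for near-identical copies within clusters.

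The median Zfp gene had a count in 16 of the 47 cells (range 4 to 47). In all, 6 genes were found in at least 40 cells and 38 in fewer than 10. A cell held counts of 28 to 104 Zfp genes, with a median of 85 in XX cells and 73 in each of the other classes. After thinning each cell to 71682 counts, the depth of the shallowest cell, the medians were 77, 66 and 66 (ranges 56 to 91, 54 to 91 and 28 to 84). The classes overlapped widely. For all genes the thinned medians were 4298, 4169 and 4186.

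At equal mean counts, Zfp genes were found in somewhat fewer cells than other autosomal genes, with their counts gathered in those cells. At a mean of 5 to 10 counts per cell the median number of cells was 28 for 37 Zfp genes and 30 for the others, and for a mean of 10 to 20 it was 33.5 for 16 Zfp genes and 40 for the others. Below a mean of 2 both medians were 10 cells. In the 5 to 10 bin, the highest cell held a median of 13.6% of the counts of a Zfp gene and 11.5% of those of another gene. In the 10 to 20 bin it held 12.4% and 8.43%.

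**Figure D1:**
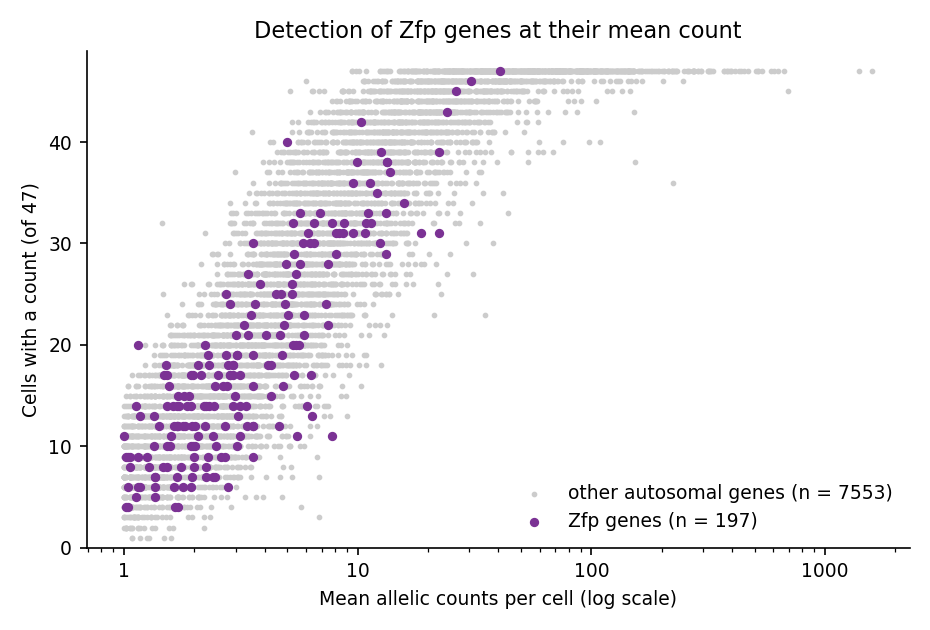
Number of cells with a count (of 47, vertical axis) against the mean allelic counts per cell (horizontal axis, log scale) for 197 autosomal Zfp genes (purple) and 7553 other autosomal genes (grey), each with at least 47 counts. Most Zfp genes lie at low means, and those with means of 10 to 20 sit in the lower part of the grey points, at a median of 33.5 cells against 40.

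Of 9 genes listed for roles in pluripotency and the early embryo, 6 were in the table and all 6 had at least 47 counts. Here and below, the log2 ratio of Cast to Mus counts is centred on that of all autosomal counts, which was 0.41, since 42.9% of autosomal counts came from Mus. The alleles of 3 of these 6 genes differed at least 2-fold, all towards Cast. Of all autosomal genes with at least 47 counts, 39.7% were past 2-fold, 20.8% towards Cast and 18.9% towards Mus. Zfp462, a regulator of heterochromatin in embryonic stem cells, had 308 Cast and 58 Mus counts, and Zfp296 had 844 and 204, with centred log2 ratios of 1.99 and 1.63. The ratio of Zfp462 was 4.69 in XX, 0.76 in X-Cast and 2.05 in X-Mus cells, and 1 X-Cast cell held 32 of its 58 Mus counts. Zfp281, which takes part in the exit from naive pluripotency, had 185 Cast and 63 Mus counts in 32 cells (1.14). Zfp281 lies on chromosome 1, where the pooled counts of the other genes had a centred log2 ratio of 0.69. Its own ratio was 0.92 in XX, 2.17 in X-Cast and 0.01 in X-Mus cells, so that this call was less firm. Zfp706 (1287 Cast and 633 Mus counts, 0.61), Zfp143, a promoter-binding activator (74 and 69, -0.31), and Zfp217 (295 and 332, -0.59) lay within 2-fold. Of the genes of this list with enough counts for a class fold, 0 of 5 in X-Cast cells and 0 of 4 in X-Mus cells were past 2-fold, numbers too small to be read against the shares of all autosomal genes (6.93% higher and 5.43% lower in X-Cast cells, 8.83% and 9.3% in X-Mus cells). Zfp143 was below the minimum for both comparisons and Zfp281 for X-Mus cells.

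Of 9 genes listed for control of retroelements and imprints, 5 were in the table and 4 passed the minimum. Zfp568 was read almost as the autosomes were, with 703 Cast and 541 Mus counts (centred log2 ratio -0.04). Zfp932, a repressor of endogenous retroviruses, had only 46 Cast and 9 Mus counts in 13 cells (1.94), and Zfp961 had 268 and 121 (0.73). Zfp202 leaned to Mus, with 92 Cast and 186 Mus counts (-1.43). After centring, however, Cast led in 8 and Mus in 9 of 17 cells with at least 4 counts, and its ratio in X-Mus cells was -0.08. In the pooled counts 1 of 4 genes was thus past 2-fold in each direction, near the 20.8% and 18.9% of all autosomal genes. Of 3 genes with a class fold, 0 were past 2-fold in X-Cast cells. In X-Mus cells Zfp202 was higher (log2 fold 1.01, with 49.4% of the class counts in 1 cell) and 0 were lower. These are too few to be read against the shares of all autosomal genes given above. Zfp264, which lies in the imprinted region around Peg3, was read from both alleles, with 27 Cast and 23 Mus counts, but in 8 cells only. The overlapping Zim3 cannot be separated from it.

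Of 14 genes listed for RNA binding, translation and mitosis, 13 were in the table and 7 passed the minimum. Zfp36l1, which promotes decay of mRNAs with AU-rich elements, was found in 42 cells with 265 Cast and 221 Mus counts. Zfp622, a factor of large ribosomal subunit maturation, had 156 and 150 counts in 32 cells, and Zfp830, needed in the early embryo, 203 and 203 in 31 cells. Of these 7 genes only Zfp638 lay past 2-fold, with 44 Cast and 84 Mus counts in 25 cells (-1.35). Among partners of KRAB proteins and related genes, 10 of 13 were in the table. Of the 9 autosomal ones, Cbx3, Atf7ip and Zfp42 lay past 2-fold towards Cast and Uhrf1 towards Mus, 4 of 9 against the background of 39.7%. Of 7 with a class fold, 0 were past 2-fold in X-Cast cells (background 6.93% higher and 5.43% lower). In X-Mus cells 1 was higher (Setdb1, log2 fold 1.52, background 8.83%) and 0 were lower (background 9.3%). With 7 genes these numbers are too small to be read against the background. Setdb1 had 319 counts in 36 cells, and Cbx5, an HP1 protein, had 1118 counts in all 47 cells.

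Across the family, differences between the alleles of the 2 strains were frequent, and about as frequent as in other genes of equal mean. The alleles of 88 of 197 autosomal Zfp genes (44.7%) differed at least 2-fold after centring, 45 towards Cast and 43 towards Mus. Over all 7750 autosomal genes with at least 47 counts the share was 39.7%, as given above. When the other genes were weighted to the bins of mean count that the Zfp genes occupied, their share was 44.4%, close to that of the Zfp genes. Without centring, 60 Zfp genes lay past 2-fold towards Cast and 29 towards Mus. Of 59 genes whose mean reached 5 counts per cell, 22 (37.3%) were past 2-fold, against 31.6% of all genes with that mean. The bins did not agree in direction. In the 5 to 10 bin the median absolute log2 ratio was 0.99 for Zfp genes and 0.71 for other genes, while in the 10 to 20 bin it was 0.43 and 0.65.

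Among genes whose mean reached 5, Zfp219 stood at the Cast end, with 273 Cast counts in 30 cells and 0 Mus counts, which allows a Mus share of up to 1.10% by the limit of 3 counts, or up to 1.34% by the 95% Clopper-Pearson interval. Against a floor of 3 counts over all cells, its centred log2 ratio was at least 6.09. Zfp219 (chr14:52006077-52020733) overlaps Arhgef40 and Tmem253, and its Cast counts came from all 3 classes, 83, 138 and 52 in XX, X-Cast and X-Mus cells. Zfp493 (chr13:67779693-67792512) had 315 Cast and 30 Mus counts (8.70% Mus, 95% Clopper-Pearson interval 5.94 to 12.2). Zfp61 had 323 Cast and 42 Mus counts, but 48.2% of its counts came from 1 cell. Zfp330 (chr8:82763607-82774160), whose promoter is shown above, rested on more cells. It had 958 Cast and 177 Mus counts (15.6% Mus, interval 13.5 to 17.8). After the centring used for the ratios, Cast led for this gene in 37 and Mus in 4 of 41 cells with at least 4 counts. The leading allele is counted in this way below too, so that a cell where Mus led can hold slightly more Cast counts. In XX cells its Cast counts ran from 0 to 46 with a median of 15 and its Mus counts from 0 to 12 with a median of 2.

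The genes at the Mus end were closer to equal among genes whose mean reached 5. Below that mean, 4 genes had a ratio under -4, the lowest being Zfp78 with 2 Cast and 75 Mus counts in 6 cells (-5.06). Zfp518b had 105 Cast and 275 Mus counts (72.4% Mus, interval 67.6 to 76.8, centred log2 ratio -1.80), and Mus led in 18 of 24 cells. Zfp740, which overlaps Csad, had 107 and 273 (-1.77). Zfp317 (chr9:19622102-19649731) had 187 and 432 (69.8% Mus, interval 66.0 to 73.4), and Mus led in 18 of 27 cells. Zfp775, Zfp870 and Zfp7 followed with centred log2 ratios of -1.60, -1.59 and -1.58, in 11, 20 and 38 cells. These 3 calls were less firm. Zfp775 fell within 2-fold at -0.38 once its highest cell was left out, and Zfp870 at -0.94. In XX cells alone Zfp7 lay at -0.69 and Zfp775 at -0.60, and Zfp870 stood at 1.27 in X-Cast cells. Of the 22 genes past 2-fold with a mean of at least 5, 15 had the same sign in all 3 classes, as had 7 of 37 genes within 2-fold. In all, 4 Zfp genes (2.03%, against 2.55% of all autosomal genes) had 0 counts on an allele, in each case Mus. Besides Zfp219 these were Zfp39, Zfp619 and Zfp672, with 95, 54 and 63 Cast counts.

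**Figure D2:**
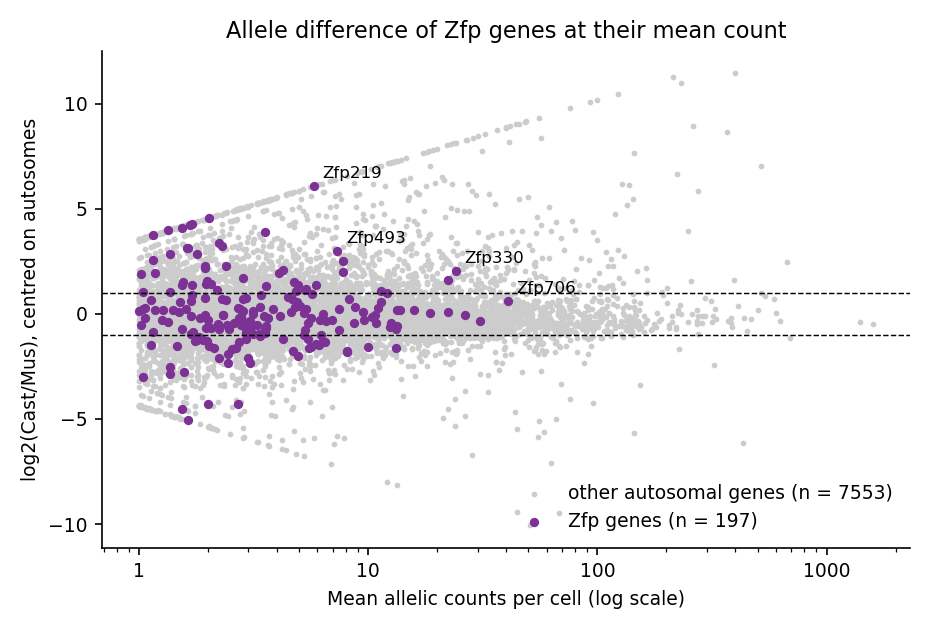
Centred log2 ratio of Cast to Mus counts (vertical axis) against the mean allelic counts per cell (horizontal axis, log scale) for 197 autosomal Zfp genes (purple) and 7553 other autosomal genes (grey). Dashed lines mark 2-fold, genes with 0 counts on an allele are placed at a floor of 3 counts and so form straight edges, and Zfp genes fall on both sides throughout their range, 45 above the upper and 43 below the lower line.

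A run of at least 3 Zfp genes with at most 500 kb between neighbours was counted as a cluster, by position alone. Chromosome 7 held 57 of the 199 genes, which were 8.91% of its genes with at least 47 counts, and chromosome 17 held 29. In all, 17 clusters held 100 genes. Genes in clusters were found in fewer cells (median 14, against 19 outside), and 50.0% of them lay past 2-fold between alleles, against 39.2% outside. Of the clustered genes 23.0% had a mean of at least 5, against 37.1% outside, so that the 2 groups also differed in level. Ratios lay on both sides of 0 in 14 of the 17 clusters and on 1 side in 3. The clusters with the highest and lowest medians and the largest one follow, a choice made after the values were seen. Their counts stand against 20.8% of all autosomal genes past 2-fold towards Cast and 18.9% towards Mus. All 4 genes at chr8:69209038-69791178 (Zfp930, Zfp868, Zfp869 and Zfp866) lay past 2-fold towards Cast, with 13.3% of their counts from Mus and a median centred log2 ratio of 2.52. At chr7:24081924-24515682, 4 of 6 genes were past 2-fold towards Cast and 0 towards Mus, with a median of 1.70. The lowest median, -2.85, was at chr7:6172226-6396915, where 4 of 5 genes were past 2-fold towards Mus and 0 towards Cast. At chr9:22055411-22307648, 2 of 3 genes were past 2-fold towards Mus, with a median of -2.01. In the largest cluster, 13 genes at chr17:21450374-22867134, 7 were past 2-fold towards Mus and 1 towards Cast, with a median of -1.10. Other clusters were mixed, such as the 10 genes around Zfp568 at chr7:29816114-30169750, with ratios from -1.47 to 2.86. Related copies can take each other's reads, and the part of this in these ratios was not tested.

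Zfp genes were often read from a single allele in a given cell, and more often than other genes of similar mean or similar count. Among pairs of an autosomal Zfp gene and a cell with at least 10 counts, 743 of 1527 (48.7%, 95% Clopper-Pearson interval 46.1 to 51.2) had all counts on 1 allele. The interval takes the pairs as independent, although many share a gene or a cell, and is thus too narrow for comparing sets of genes. Other autosomal genes gave 27.1%, and 41.3% when weighted to the same bins of mean count. In the 5 to 10 bin the shares were 53.3% for Zfp genes and 40.7% for other genes, and in the 10 to 20 bin 37.7% and 28.7%. Below a mean of 2 they were alike, at 70.6% and 71.1%. Only Zfp706 had a mean above 40, with 1 monoallelic cell of 45 (2.22%), below the 9.90% of other genes with such a mean.

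Sorted by the count in the cell in place of the mean, a choice made after the data were seen like the comparisons by cell and by gene that follow, the Zfp genes lay above the other genes in each of the 4 closed ranges, from 10 to 39 counts. With 10 to 14 counts 59.2% of Zfp pairs were monoallelic and 46.8% of other pairs, with 20 to 29 counts 47.3% and 27.7%, and with 30 to 39 counts 35.4% and 20.8%. The shares with 40 counts and more, 23.1% and 10.2%, are not at matched counts, since that range has no upper end and Zfp706 alone among the Zfp genes had a mean in it. Within cells, the share of the Zfp genes exceeded that of other genes in the same bins of mean count in 39 of 47 cells, namely 20 of 23 XX, 13 of 15 X-Cast and 6 of 9 X-Mus cells. The median difference was 7.04 percentage points (range -15.6 to 27.8). Of 100 Zfp genes with at least 5 such cells and a mean of 2 to 40, 65 lay above the pooled share of the other genes of their bin, as did 46.4% of those other genes. The stronger gathering of counts in few cells, given above, went along with this difference, and its part in it was not tested.

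**Figure D3:**
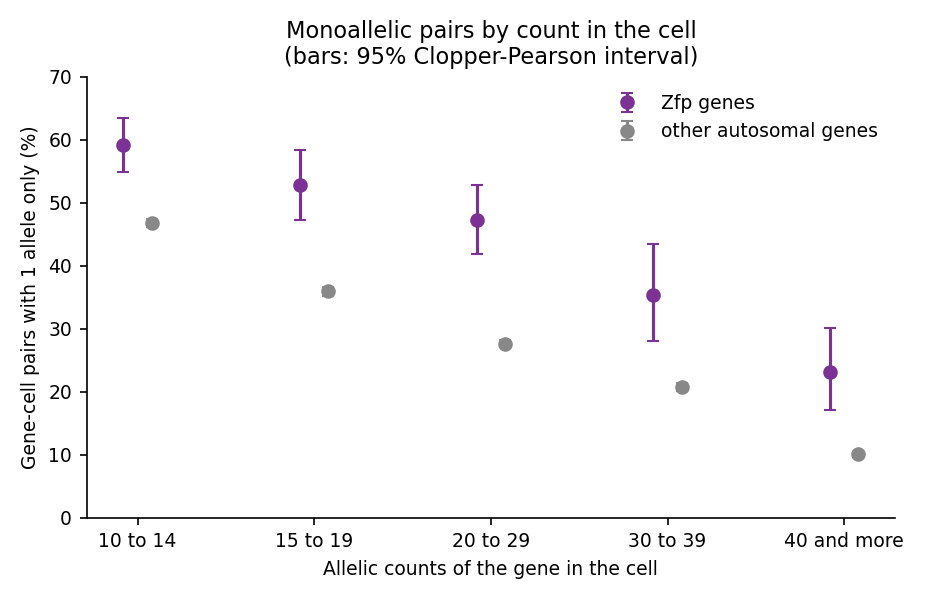
Percentage of pairs of a gene and a cell with all counts on 1 allele (vertical axis) by the count of the gene in the cell (horizontal axis), for autosomal Zfp genes (purple) and other autosomal genes (grey). Points are shares with 95% Clopper-Pearson intervals, which take pairs as independent although many share a gene or a cell. The Zfp genes lie above the other genes in the 4 closed ranges, from 59.2% against 46.8% to 35.4% against 20.8%. The last range has no upper end and its shares are not at matched counts.

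Of the 743 monoallelic pairs 60.4% were on Cast, against 64.3% for other autosomal genes. At least 2 cells monoallelic for Cast and at least 2 for Mus were found in 46 of 197 Zfp genes (23.4%, against 19.5% of all autosomal genes), and in 30 of the 59 with a mean of at least 5 (50.8%, against 29.4% of 3974 other autosomal genes). These shares are not at matched means. In the 5 to 10 bin they were 48.6% for Zfp genes and 32.4% for other genes, and in the 10 to 20 bin 62.5% and 38.3%. Above 40 they were 0% for Zfp706 alone and 8.33%. Zfp217, known as an oncogene and a pluripotency factor, had the most monoallelic cells. Of 28 cells with at least 10 counts, 10 had Cast counts only, up to 25, and 7 had Mus counts only, up to 32. Zfp819, a KRAB gene expressed in embryonic stem cells, had 5 such Cast and 8 such Mus cells of 24, among them a cell with 145 Cast and 0 Mus counts. Over all cells both of these genes lay within 2-fold, with 53.0% and 42.4% Mus against 42.9% of all autosomal counts. Zfp819 was thus near that share, while Zfp217 leaned to Mus, at a centred log2 ratio of -0.59. Zfp568 had 8 Cast and 3 Mus cells of 39, Zfp566 4 and 6 of 26, Zfp24 7 and 3 of 19, Zfp704 6 and 4 of 19, and Zfp871 4 and 6 of 11. Zfp317, with 2 Cast and 9 Mus cells of 22, followed its overall lean. Zfp462 differed from these in direction, as all 13 of its monoallelic cells, of 18, were on Cast.

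**Figure D4:**
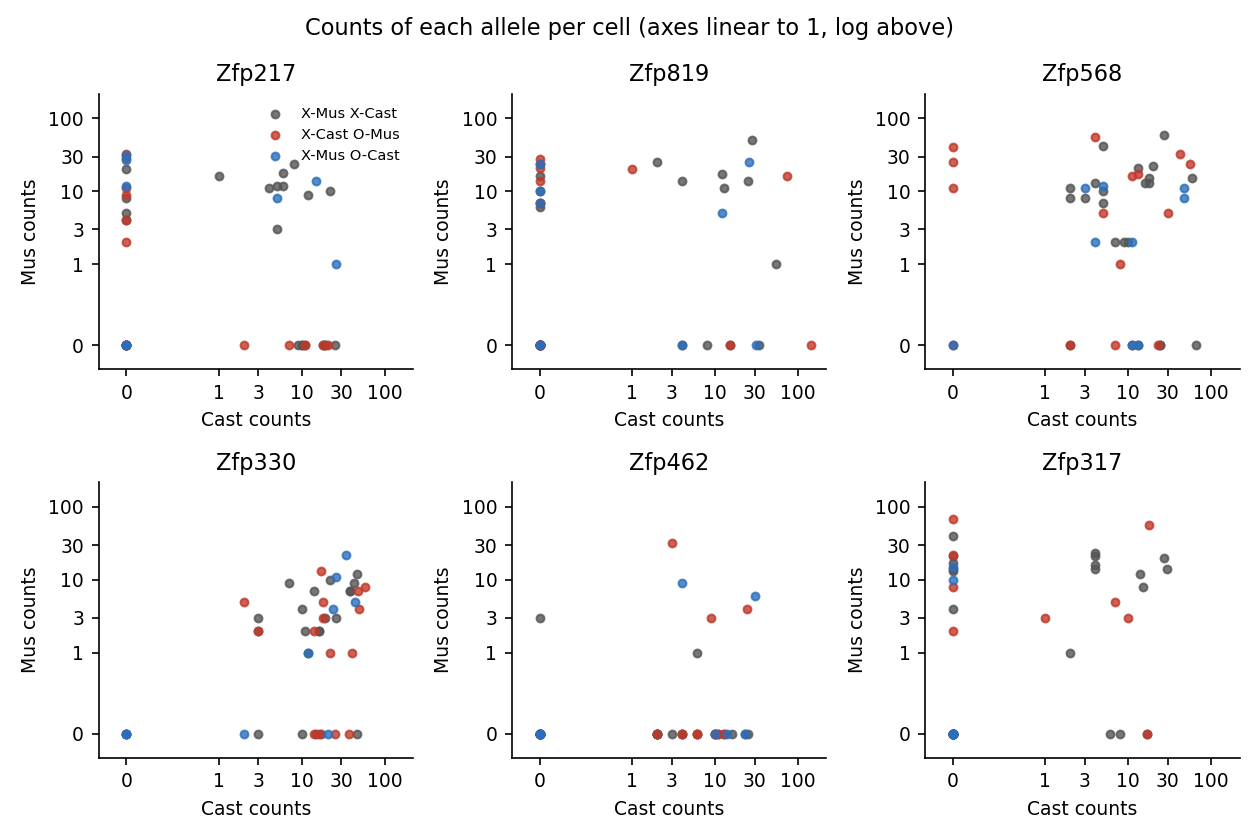
Cast counts (horizontal axis) and Mus counts (vertical axis) in each of 47 cells for 6 Zfp genes, both axes linear up to 1 and logarithmic above, with points coloured by class. Zfp217, Zfp819 and Zfp568 have cells along both axes, whereas cells of Zfp330 and Zfp462 gather on the Cast side and those of Zfp317 on the Mus side.

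The classes were compared by mean counts per 10000, without a test, and both comparisons share the XX cells. The share of autosomal counts on Zfp genes was 0.512% to 1.02% with a median of 0.696% over XX cells, 0.479% to 1.08% with a median of 0.779% over X-Cast cells, and 0.410% to 0.953% with a median of 0.742% over X-Mus cells. The family as a whole therefore overlapped between classes. Of 60 Zfp genes whose mean reached 5 in the cells compared, 5 (8.33%, background 6.93%) were at least 2-fold higher in X-Cast than in XX cells and 3 (5.00%, background 5.43%) at least 2-fold lower. The median log2 fold was 0.19, against 0.03 for all genes tested. For X-Mus cells, of 52 genes 9 (17.3%, background 8.83%) were higher and 8 (15.4%, background 9.3%) lower, with a median of -0.08 against 0.04. Leaving out the highest cell of each gene in each class changed these last counts to 1 higher (1.92%) and 13 lower (25.0%). Over all autosomal genes tested, the shares became 5.95% higher and 16.6% lower. The minimum was set on the cells of both classes together, so that a gene low in one class could pass only by being high in the other. Of the genes past 2-fold, 6 of 8 for X-Cast cells and 11 of 17 for X-Mus cells had a mean under 5 in the lower class, and their folds are given as descriptions. Among the 8 pluripotency markers, Nanog was past 2-fold lower, with log2 folds of -1.14 in X-Cast and -1.26 in X-Mus cells, and the other 7 were within 2-fold. The summed marker counts, most of them from Tdgf1 and Zfp42, overlapped, at 578 to 1956 in XX, 335 to 1645 in X-Cast and 258 to 1474 in X-Mus cells. The part of the lower Nanog level in the Zfp folds was not tested.

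Zfp612 had 0 to 15 counts per XX cell with a median of 0 and counts in 2 of 23 cells. In X-Cast cells it had 0 to 60 counts, also with a median of 0, and counts in 7 of 15 cells. Its log2 fold of 3.50 thus came from those 7 cells, and the classes overlapped at 0. With a mean of 11.4 in X-Cast and 0.826 in XX cells, it passed the minimum only through the class where it was high. Zfp229 had 0 to 12 counts in XX cells (median 3, 14 cells with a count) and 0 to 40 in X-Cast cells (median 7, 12 cells), a log2 fold of 1.76. Zfp775 (1.66) had 67.3% of its X-Cast counts in 1 cell, and its fold was 0.60 without the highest cells. On the lower side, Zfp61 had 0 to 176 counts per XX cell with a median of 0 and counts in 9 of 23 cells, of which 1 cell held 51.6%. It had counts in 2 X-Cast cells (24 counts, log2 fold -3.36) and in 0 X-Mus cells, at least 5.21 lower on the log2 scale against a floor of 3 counts over that class. This bound was nearer to 0, at a log2 fold of -4.29, once the highest cell of each class was left out. Zfp473, which takes part in histone pre-mRNA processing, fell by 1.42 and Zfp239 by 1.04 on the log2 scale in X-Cast cells, the latter with counts in 7 of 15 against 18 of 23 cells. Zfp239 came to -0.95 with size factors by the median of ratios and to -0.98 per 10000 autosomal counts, within 2-fold. Without the highest cell of each class, the folds in X-Cast cells were 5.48 for Zfp612 and 1.72 for Zfp229. On the lower side they were -5.04 for Zfp61, -2.08 for Zfp473 and -1.21 for Zfp239.

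In X-Mus cells, Zfp317 had 0 to 15 counts with a median of 0 and counts in 2 of 9 cells, against 0 to 47 with a median of 17 and counts in 18 of 23 XX cells. Its log2 fold was -2.60. Zfp560 had 6 counts in 1 of 9 X-Mus cells, 0 counts in all 15 X-Cast cells and 161 counts in 11 of 23 XX cells (log2 fold -3.08 for X-Mus). It passed the minimum only through the XX cells, with a mean of 7.0 there and 0.667 in X-Mus cells. These 2 genes were thus detected in few cells of this class, though both had XX cells at 0 as well. With the highest cell of each class left out, their folds were -3.95 for Zfp317 and -3.89 for Zfp560. Zfp532, Zfp280b and Zfp930 had the highest folds, 1.61, 1.39 and 1.33, with 41.7%, 41.7% and 42.6% of the class counts in 1 cell. Without the highest cell of each class the folds were 1.53, 0.88 and 0.92, so that Zfp532 stayed past 2-fold. It had counts in 7 of 9 X-Mus cells with a median of 8, against 15 of 23 XX cells with a median of 2.

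**Figure D5:**
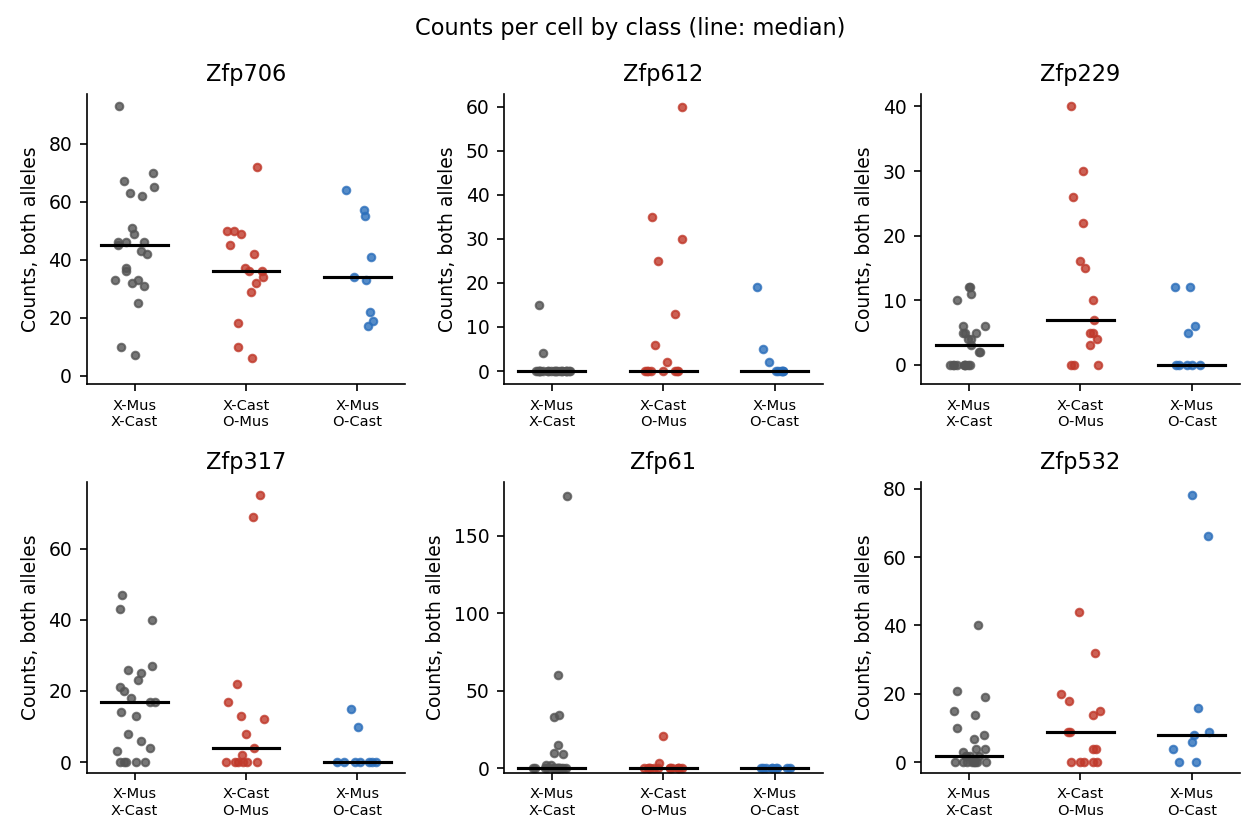
Counts of both alleles in each cell (vertical axis) for 6 Zfp genes, with cells grouped by class (23 XX, 15 X-Cast and 9 X-Mus), and lines at the medians. Zfp706 has similar medians of 45, 36 and 34, Zfp317 drops to a median of 0 in X-Mus cells, and most cells of Zfp612 and Zfp61 lie at 0.

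The study set the classes by which alleles of X-linked genes were expressed, so that the allele from which X-linked Zfp genes are read is given as a description only. Zfp280c had 30 Cast and 21 Mus counts in XX cells, 34 and 0 in X-Cast cells, and 0 and 23 in X-Mus cells. For Zfp182 the counts were 9 and 21, 19 and 0, and 0 and 0. Zfp182 was therefore not found in X-Mus cells on either allele. In mean counts per 10000, the retained Cast allele of Zfp280c stood at 0.0741 in XX and 0.145 in X-Cast cells and its Mus allele at 0.0526 in XX and 0.154 in X-Mus cells. The Cast allele of Zfp182 stood at 0.0254 in XX and 0.0681 in X-Cast cells, and its Mus allele at 0.0606 in XX and 0 in X-Mus cells. The retained allele was thus higher in 3 of these 4 cases and lower in 1, with counts in at most 7 cells of a class and without a test. The 4 other X-linked Zfp genes in the table (Zfp185, Zfp275, Zfp36l3 and Zfp449) had 0 to 12 counts.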

How the data were processed

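Allelic read counts of 47 single iPSCs were analysed. The authors deposited unnormalized counts per gene, with 2 columns per cell, 1 for each allele. Per the labels, cells were sorted into a GpC methylase mix, mRNA was captured on oligo-dT beads and Nextera XT libraries were sequenced as 50 bp single-end reads. The submitters' processing notes name STAR 2.5.3a, SAMtools and mm10. The methods describe masked SNP positions, SNPsplit and genes with at least 4 SNPs under the heading of Smart-seq2 libraries. They do not describe the mapping of this plate separately, so that its processing in this way is likely but not stated. Counts may rest on few SNPs in a gene, and a read over several SNPs may be counted more than once.

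Everything else was computed in Python (version 3.11.15), using pandas 2.3.3, numpy 2.4.6, matplotlib 3.10.9 and scipy 1.17.1. Levels were scaled to 10000 counts per cell. Called genes were past 2-fold, without a test. Allele ratios were compared in bins of mean count with edges at 1, 2, 5, 10, 20 and 40. Functions for folds and allele ratios were tested on simulated data. Class folds are relative to the total of the cell, so that in this test they were read against the unchanged genes where all changed genes moved one way. Genes were named by rule: the 8 with most counts, the 6 highest and 6 lowest allele ratios and the most monoallelic or switching genes with a mean of at least 5, the 3 highest and 3 lowest class folds, and members of fixed lists. Zfp39, Zfp619, Zfp672 and Zfp78 and the clusters described were chosen after their values were seen. The genes and lists were chosen with earlier results of these data known. Protein sequences were not used here. Of 6 listed genes of 2-cell-like cells, 0 were in the table.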

Additional observations from a re-analysis of the deposited data

How the results depend on the processing

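No alternative reversed the allele ratio or the class fold of the named genes for which alternatives were computed. Of 84 such allele ratios 79 stayed past 2-fold, and of 54 class folds 49, not counting the 6 X-Cast folds without the shallowest cell, which is in neither class they compare. Most of these genes were named as extremes of the same data, and some alternatives can hardly move a ratio. Their staying past 2-fold was thus largely set in advance. Values of the whole family moved beyond the limit set for them in 26 alternatives and did not in 36. The 36 include X-Cast counts that the shallowest cell cannot change. The balance of allele calls over the family, 45 towards Cast and 43 towards Mus, was 45 and 53 in XX cells alone. The median level of 0.173 counts per 10000 was 0 with the median over cells, 0.493 with a minimum mean of 5, 0.103 with no minimum and 2.94 as unscaled counts. With at least 3 counts, 67 Zfp genes were detected per cell in place of 81. Past 4-fold between alleles were 35 of 197 genes (17.8%, other genes 16.5%). Past 2-fold were 22 of 59 with a mean of at least 5 (37.3%, other genes 31.5%), 143 of 280 with no minimum (51.1%, 48.0%) and 51 of 114 that overlap no other gene (44.7%, 39.6% of all other genes), the last chosen after seeing the data. The monoallelic share was 60.9% with at least 4 counts (other genes in the same bins 54.3%), 38.2% with at least 20 (32.3%) and 45.1% in XX cells only (38.1%), the last chosen after seeing the data. In the class counts that follow, the percentage in parentheses is the share of all autosomal genes tested. For X-Cast cells, 31 of 194 Zfp genes were higher (14.03%) and 40 lower (12.7%) with a minimum mean of 1, and 1 of 20 and 0 of 20 with a minimum of 10 (3.75% and 3.16%). Past 1.5-fold were 18 of 60 higher (16.4%) and 8 lower (13.3%), and without the highest cells 6 of 60 lower (8.62%). For X-Mus cells, 41 of 186 were higher (15.9%) and 44 lower (18.3%) with a minimum mean of 1, and 1 and 3 of 21 with a minimum of 10 (4.85% and 6.17%). Past 1.5-fold 16 of 52 were higher (19.1%), and without the highest cells 1 of 52 was higher (5.95%) and 13 lower (16.6%). Without the shallowest cell, an X-Mus cell with 71682 counts, 10 of 53 were higher (9.53%) and 10 lower (8.96%), a choice made after seeing the data. The causes of these shifts were not tested. No paired analysis was possible because the cells carry no pairing and no result comes from a test.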
